A study of Mus musculus with 32 samples.

Results

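Mouse embryonic stem cells of the line labelled Mettl3 KO were compared at day 0, as untreated stem cells, and at day 2 of differentiation, as organoids. The members of the comparison are the 2 libraries labelled KO at day 0 and the 2 libraries labelled KO at day 2, that is 4 of the 32 libraries of the series, which form 16 groups of 2. Day 0 cells carried no treatment label, and the day 2 organoids were labelled as treated with AGN, given at 0.1 µM in a medium for differentiation. Day, culture form, medium and AGN changed together and cannot be told apart. Libraries from 3 other kinds of culture were used at the same days: the Rx:GFP line with WT Mettl3, and the KO line overexpressing a METTL3-GRBD fusion without or with dexamethasone (Dex), a synthetic glucocorticoid given at 10 µM. The day 2 libraries of all 3 also carried the AGN label at 0.1 µM. Dex was labelled at both days. The series text describes the fusion as cytosolic without Dex and nuclear with it. The labels do not give the clone, the deleted exons, or whether duplicates came from separate cultures, so every p-value measures only the spread between these libraries, which may be technical.

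Mettl3 encodes the catalytic subunit of the complex that writes N6-methyladenosine (m6A) on RNA, a mark that shortens the life of many transcripts. In mouse stem cells, loss of Mettl3 has been described to hinder the exit from the naive state, the ground state held by the cytokine LIF through STAT3 and by factors such as Nanog, Klf4 and Esrrb. Cells that leave this state pass through a formative or primed state, marked by Fgf5, Otx2 and Pou3f1, before they take on germ layer fates. Retinal organoid protocols steer that exit towards the anterior neural plate and the eye field.

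KO libraries did not hold less of the Mettl3 transcript itself. Its level was 43.8 and 42.9 FPKM (fragments per kilobase of transcript , scaled to the mapped fragments of each library) at day 0 and 38.9 and 40.8 FPKM at day 2, beside 36.8 and 33.2 FPKM in WT at day 0 and 40.2 and 41.2 FPKM in WT at day 2. Its change in KO was -0.12 ± 0.06 (SE) on the log2(FPKM + 1) scale, with a limma adjusted p of 0.0989. With median-of-ratios rescaling it was -0.21 and called. Each SE of a change or difference comes from limma's fit. It pools the spread within all 16 groups and is not the spread of the libraries printed beside it. A value for the whole gene does not check a deletion of some of its exons, so the KO label is used here as given. Estimated depth was 35.0 M and 33.5 M fragments (M, mega) for the KO day 0 libraries and 52.8 M and 33.1 M for the KO day 2 libraries, within the 28.0 M to 52.8 M of all libraries. At these depths 3 fragments on a transcript of 2 kb correspond to between 0.033 and 0.053 FPKM, which covers counting error only. Pearson's r across genes was 0.9937 between the KO day 0 duplicates and 0.9945 between the day 2 duplicates, and between 0.9471 and 0.9482 for libraries of different days. Genes are not independent replicates, so these values describe the libraries.

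KO cells changed broadly in 2 days. Calls rest on limma's two-sided test over all 32 libraries (16 residual degrees of freedom) and a Benjamini-Hochberg adjusted p under 0.05. Of 16276 genes tested, 10684 (65.6%) were called, 6048 (37.2%) higher and 4636 (28.5%) lower at day 2. The majority direction depended on scaling: 56.6% of the called genes were higher as deposited and 48.2% (5166 higher, 5543 lower) after median-of-ratios rescaling. In 13159 genes (80.8%) the day 0 and day 2 libraries did not overlap. Counts for the gene lists below are to be read beside these shares of all genes tested. For differences from WT the shares were 35.6% more positive and 13.2% more negative in KO. Larger changes, of at least 1 on the log2(FPKM + 1) scale, were fewer: 1247 genes (7.66%) rose and 796 (4.89%) fell by that much. Of those that rose, 93.6% were protein-coding, beside 81.9% of those that fell and 83.7% of all genes tested. The median change over all genes tested was 0.06, and the rescaling moved it to 0. On this scale, changes of low genes come out too small. In RNA of whole cultures, fewer cells of a type and less RNA per cell cannot be told apart.

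The steepest rise of a gene with signal on both days was that of Fgf5, the growth factor that defines the post-implantation epiblast. It measured 0.23 and 0.22 FPKM at day 0 and 61.6 and 63.4 FPKM at day 2, a change of 5.7 ± 0.09 (adjusted p = 2.47e-20). Stra8, a retinoic acid responsive gene needed to enter meiosis, had the largest fall: 107 and 96.9 FPKM at day 0 became 0.46 and 0.87 FPKM, a change of -5.96 ± 0.09 (adjusted p = 5.84e-21). In each case the duplicates lay close together. The days did not overlap, which was a condition of the ranking. The 250 bases before the RefSeq start of both genes (GRCm38.p6) are shown, since they frame the extremes of the comparison, with those of Socs3, the STAT3 feedback inhibitor whose fall set KO and WT apart. Fgf5 lies at chr5:98253934-98254183 on the plus strand, with 1 GC box (GGGCGG or its reverse complement) in capitals. Stra8 lies at chr6:34920698-34920947 on the plus strand, with 2 copies of the nuclear receptor motif AGGTCA in capitals. Socs3 lies at chr11:117969367-117969616 and is printed on its minus strand, with 1 match to the STAT motif TTCNNNGAA in capitals.
Fgf5: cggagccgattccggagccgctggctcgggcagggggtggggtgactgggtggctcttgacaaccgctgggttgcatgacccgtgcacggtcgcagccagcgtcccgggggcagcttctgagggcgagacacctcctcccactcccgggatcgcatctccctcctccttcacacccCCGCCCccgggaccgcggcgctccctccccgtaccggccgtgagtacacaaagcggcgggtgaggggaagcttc
Stra8: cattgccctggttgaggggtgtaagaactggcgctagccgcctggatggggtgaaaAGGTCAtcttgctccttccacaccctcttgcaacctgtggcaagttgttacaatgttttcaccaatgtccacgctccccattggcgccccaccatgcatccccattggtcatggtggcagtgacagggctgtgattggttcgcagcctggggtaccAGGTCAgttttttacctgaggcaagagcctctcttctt
Socs3: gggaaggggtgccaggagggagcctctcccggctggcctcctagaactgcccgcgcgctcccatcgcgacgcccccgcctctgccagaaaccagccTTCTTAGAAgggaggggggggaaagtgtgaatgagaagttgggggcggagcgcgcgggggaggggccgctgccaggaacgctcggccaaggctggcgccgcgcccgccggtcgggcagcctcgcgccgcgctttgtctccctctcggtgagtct

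Promoters of 11236 of 16255 tested symbols were matched in RefSeq, as windows of 300 bases read on both strands. The GC box stood in 64% of all of them, in 69.2% of the 907 matched genes that rose by at least 1 and in 51.8% of the 535 that fell by at least 1. AGGTCA was found in 11.9%, 11.7% and 14.2% of the same 3 groups, and in 2 of 10 matched retinoic acid genes. TTCNNNGAA was found in 6.56%, 4.63% and 6.54%, and in 1 of 9 genes of the LIF and STAT3 list. The octamer ATGCAAAT stood in 1.48%, 1.54% and 1.87%, the E-box CACGTG in 10.2%, 7.83% and 8.79%, and TCAAGGTCA, which contains AGGTCA, in 0.267%, 0.11% and 0.561%. AGGTCA and TTCNNNGAA were added after the data were seen. A match of letters is a description of the window and was not tested as a site.

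The 10 largest rises held Fgf5 and 9 other genes. Pou3f1, a POU factor of the primed epiblast, went from 3.46 and 2.94 FPKM to 157 and 154 FPKM (change 5.22 ± 0.06). Cldn6, a tight junction claudin, went from 2.33 and 2.44 FPKM to 138 and 134 FPKM (5.34 ± 0.1), and Cldn7 rose by 4.34 ± 0.1. Slc16a3, the lactate exporter, went from 14.2 and 12.9 FPKM to 448 and 444 FPKM (4.94 ± 0.07). No overlap between the libraries of the 2 days was a condition of this ranking. It was met by 80.8% of all genes tested. Ndufa4l2, a mitochondrial protein induced in hypoxia, ended at 101 and 94.5 FPKM, yet its day 0 duplicates stood apart at 2.52 and 0.54 FPKM (5.4 ± 0.21). Pim2, a kinase of the Pim family, rose by 5.2 ± 0.04, Vrtn by 4.6 ± 0.1 and Car14, a carbonic anhydrase, by 4.46 ± 0.09. Exosc6, a subunit of the RNA exosome, was listed at 0 FPKM in both KO libraries at day 0 and 107 and 101 FPKM at day 2. It lies within the 3′ end of Aars on the same strand of chromosome 8, so the assignment of its fragments is uncertain and no fold is given.

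Stra8 headed the 10 largest falls. Next came Aqp3, a water and glycerol channel, at 104 and 102 FPKM on day 0 and 1.07 and 0.96 FPKM on day 2 (change -5.69 ± 0.11). Mras, a small GTPase, fell by 5.11 ± 0.13, and the tetraspanin Cd37 fell by 5.02 ± 0.11. Halr1, a long noncoding RNA beside the Hoxa cluster, went from 47.3 and 50.5 FPKM to 0.53 and 0.61 FPKM (-4.99 ± 0.14). Bcl3, a partner of NF-kappaB and a LIF target, fell by 4.81 ± 0.1, and Inhbb, a subunit of activin B, fell by 4.73 ± 0.05 to 0.12 and 0.16 FPKM. Mylpf, a myosin light chain, had the widest pooled SE of the group (-4.82 ± 0.24). It measured 330 and 283 FPKM at day 0 and 9.2 and 10.5 FPKM at day 2. Zscan4f and Calcoco2 fell by 3.98 ± 0.13 and 3.92 ± 0.08. The transcript of Zscan4f belongs to a family of near-identical copies, so its value may hold fragments of the others.

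Core pluripotency factors parted ways. Nanog fell from 188 and 193 FPKM to 32.7 and 34.1 FPKM (change -2.48 ± 0.04, adjusted p = 1.87e-19). Pou5f1, which encodes Oct4, stayed high at 947 and 951 FPKM on day 0 and 869 and 886 FPKM on day 2, a change of -0.11 ± 0.05 that was not called (adjusted p = 0.0628), although it was called after rescaling. Sox2 fell by 0.67 ± 0.04 and Sall4 by 0.49 ± 0.06. So 3 of these 4 genes fell, with a list median of -0.58. Nanog was the only one of the 4 whose change differed from that in WT, where it fell further, to 15.3 and 16.1 FPKM (difference 0.94 ± 0.06, adjusted p = 7.9e-10). After rescaling, the changes of Sox2 and Sall4 were called more negative than in WT.

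Naive pluripotency genes fell as a group: 14 of 15 were called lower and 1 higher, with a median change of -2.24. In 15 of 15 the days did not overlap, beside 80.8% of all genes tested. Klf4, a STAT3 target and reprogramming factor, fell from 56 and 57.1 FPKM to 5 and 4.48 FPKM (-3.33 ± 0.07). Esrrb, an orphan nuclear receptor, fell from 155 and 160 FPKM to 23.6 and 22.8 FPKM (-2.71 ± 0.04). Zfp42, the Rex1 marker, fell from 584 and 591 FPKM to 102 and 97.8 FPKM (-2.54 ± 0.05). Each of these genes thus kept a level well above the depth limit at day 2. The T-box factor Tbx3 had the largest fall of the list, by 3.67 ± 0.16, and Klf2 (-1.06 ± 0.05) and Tdh (-0.94 ± 0.06), a threonine dehydrogenase, the smallest ones. Dppa3, a maternal factor that guards against demethylation, was the exception and rose from 16.5 and 18.2 FPKM to 23.7 and 25 FPKM (0.47 ± 0.11, adjusted p = 0.000755). Against WT, 6 of the 15 changes were more positive and 6 more negative, and 4 and 6 after rescaling.

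**Figure D1:**
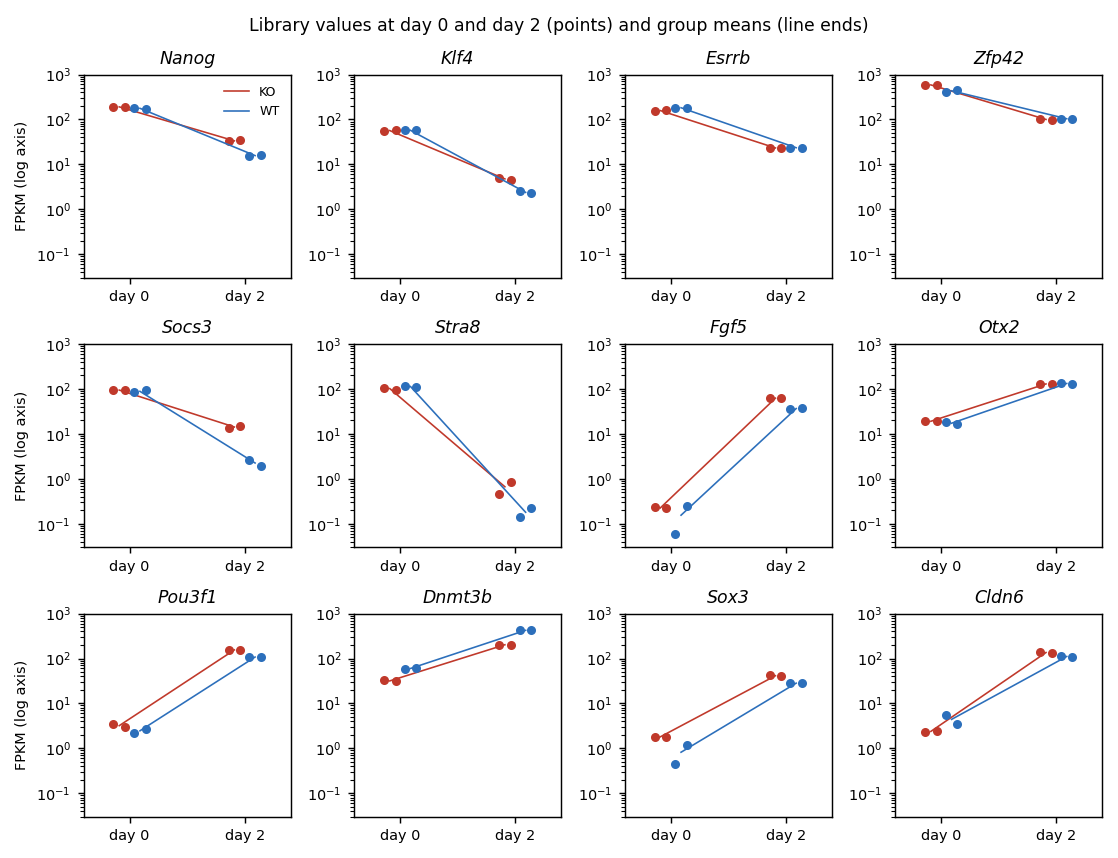
FPKM of 12 genes in each KO (red) and WT (blue) library at day 0 and day 2 on a log axis, where points are libraries and line ends are group means. Socs3 and Nanog end higher in KO than in WT, while Fgf5, Otx2 and Pou3f1 rise in both.

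Targets of LIF and STAT3 fell too, 9 of 9, with a median of -1.63. The fall was smaller in KO than in WT for 6 of the 9 and larger for 1. Socs3, the feedback inhibitor of the pathway, measured 95.7 and 93.4 FPKM at day 0 and 13.9 and 14.6 FPKM at day 2 in KO, whereas WT ended at 2.56 and 1.94 FPKM. Its change was -2.65 ± 0.08 in KO and differed from WT by 2.14 ± 0.11 (adjusted p = 2.12e-11). Stat3 fell from 22.7 and 21.8 FPKM to 9.06 and 8.66 FPKM (difference from WT 0.93 ± 0.08), and Junb, an AP-1 subunit, fell by 1.16 ± 0.09 (difference 1.05 ± 0.12). The homeobox gene Gbx2 was the 1 that fell further than in WT (-3.35 ± 0.07). Lifr, the receptor, had discordant day 0 duplicates at 26 and 12.4 FPKM, and its fall (-1.62 ± 0.3) did not differ from WT (adjusted p = 0.911).

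Formative and primed genes rose: 11 of 14 tested were called higher and 3 lower, with a median of 2.16. Otx2, the homeobox gene of the epiblast and forebrain, went from 19 and 19.2 FPKM to 130 and 129 FPKM (2.7 ± 0.03). Sox3, a SOXB1 factor, went from 1.81 and 1.8 FPKM to 42.4 and 40.4 FPKM (3.92 ± 0.11), and Lef1, a partner of beta-catenin, from 1.24 and 1.22 FPKM to 29.5 and 27.9 FPKM (3.73 ± 0.1). The day 2 values exceeded the day 0 values many times over in both duplicates. Utf1 rose by 0.3 ± 0.05, from an already high 757 and 791 FPKM. Tcf15 (-0.82 ± 0.09), Etv4 and Dnmt3a were the 3 that fell. Wnt8a was not tested because it stayed under the filter. Against WT, 5 of the 14 changes were called more positive and 4 more negative, and after rescaling this became 3 and 6.

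The DNA methylation enzymes moved in both directions within families. Dnmt3b, the de novo methyltransferase of the epiblast, went from 32.4 and 31.1 FPKM to 204 and 201 FPKM (2.64 ± 0.03). WT went from 59.2 and 61 FPKM to 426 and 423 FPKM, so the KO libraries held less of it at both days, and the difference between the changes was small (-0.16 ± 0.04, adjusted p = 0.000767). Dnmt3a fell by 0.3 ± 0.05 in KO and rose in WT (0.24), a difference of -0.54 ± 0.07. The cofactor Dnmt3l fell by 0.2 ± 0.06 and the maintenance factor Uhrf1 by 0.59 ± 0.02. Of the Tet dioxygenases, which oxidise methylcytosine, Tet1 fell by 1.33 ± 0.08 and Tet2 by 2.34 ± 0.1, while Tet3 rose by 0.81 ± 0.05. In total 6 of 9 enzymes fell and 2 rose, with a median of -0.3. Set against WT, 4 changes were more positive and 5 more negative, and 3 and 5 after rescaling. The Tet2 fall was smaller than in WT by 1.03 ± 0.13.

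Of the Lin28 and Myc family, 5 of 7 rose and 2 fell (median 0.69). Lin28a, which blocks let-7 maturation, rose from 74.8 and 76.6 FPKM to 123 and 122 FPKM (0.69 ± 0.02), and Lin28b rose by 0.92 ± 0.03. Mycn rose by 1 ± 0.04 and Mycl by 1.68 ± 0.05, whereas Myc fell by 0.85 ± 0.06. The family members were therefore not moving one way. Against WT, 3 changes were more positive and 1 more negative, and after rescaling 1 and 2.

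Genes of the 2-cell-like state and the germline mostly fell: 10 of 15 tested were lower, 3 higher and 2 not called (median -1.05), which after rescaling became 10 lower and 2 higher. Zscan4c, a marker of the 2-cell-like state, went from 21 and 21.2 FPKM to 0.91 and 0.71 FPKM (-3.61 ± 0.07), and Zscan4d fell by 3.17 ± 0.09. Day 0 values of both were higher in KO than in WT, where Zscan4c measured 12.4 and 13 FPKM, and both ended under 1 FPKM. Dppa2, a priming factor of the early embryo, fell by 1.88 ± 0.06, and Hormad1, a meiotic chromosome protein, by 1.25 ± 0.08. Sycp3, of the synaptonemal complex, rose from 10.6 and 9.97 FPKM to 20.1 and 20.8 FPKM (0.93 ± 0.09). Tcstv1 was not tested.

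**Figure D2:**
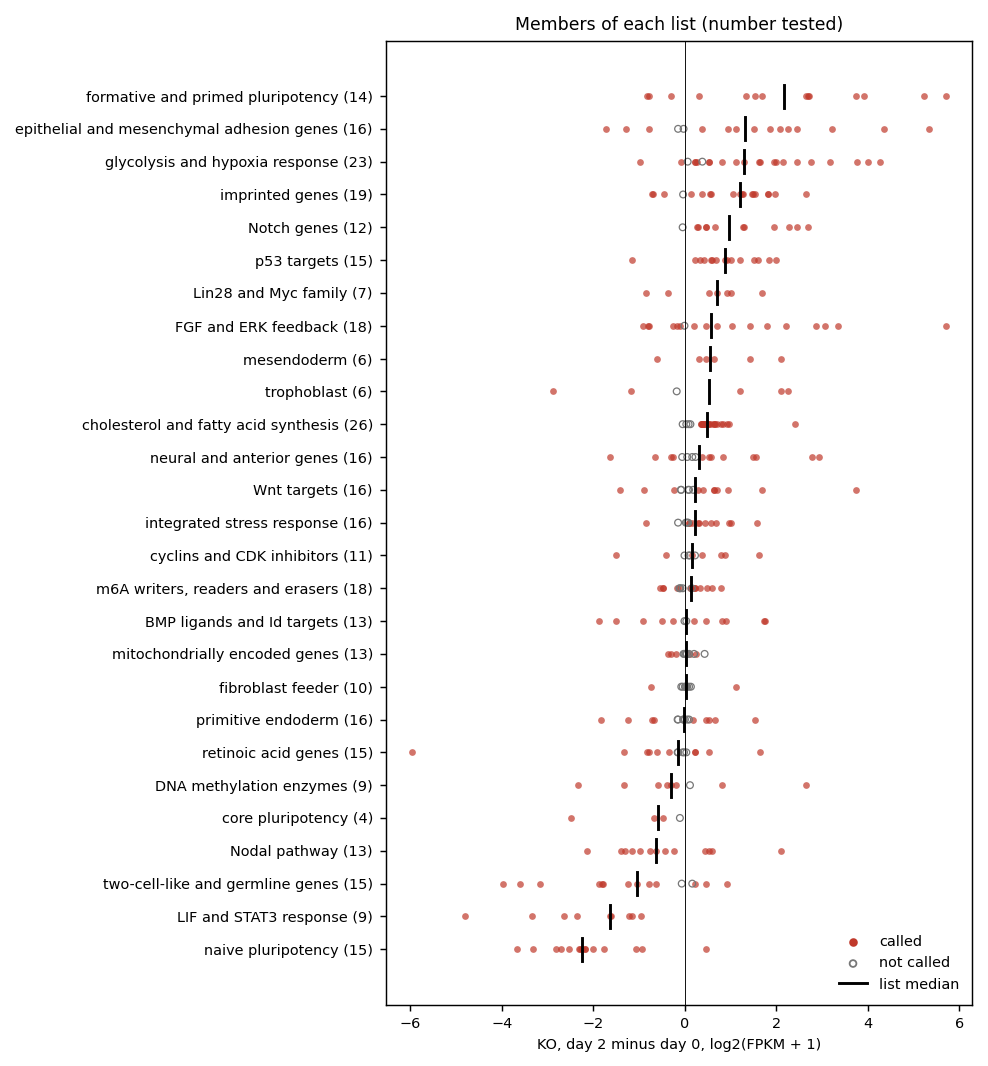
Change from day 0 to day 2 in KO on the log2(FPKM + 1) scale for the tested members of 27 gene lists, sorted by median, with called members filled, members not called open and the list median as a bar. Formative genes lie mostly to the right (median 2.16) and naive genes mostly to the left (median -2.24).

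Nodal pathway genes fell in 9 of 13 tested cases and rose in 4, with a median of -0.63. The ligand Nodal fell from 36.2 and 35 FPKM to 13.9 and 13.3 FPKM (-1.32 ± 0.06). Its inhibitors Lefty1 and Lefty2 fell by 2.15 ± 0.14 and 1.39 ± 0.08, and the co-receptor Tdgf1, or Cripto, fell from 228 and 234 FPKM to 105 and 103 FPKM (-1.15 ± 0.06). All of these falls were smaller than in WT, by between 0.66 and 1. The ligand Gdf1, a partner of Nodal, rose from 3.99 and 5.38 FPKM to 23.4 and 23.2 FPKM (2.11 ± 0.13). Inhibitory Smad7 fell by 0.77 ± 0.07, less than in WT by 1.17 ± 0.1. Over the list 9 changes were more positive than in WT and 2 more negative, and 8 and 2 after rescaling.

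Among FGF and ERK feedback genes 11 of 18 rose, 6 fell and 1 was not called, with a median of 0.58. The ligand Fgf15 rose by 3.35 ± 0.05, and Fgf8, a ligand of the primitive streak and of signalling centres of the brain, went from 0.31 and 0.43 FPKM to 2.5 and 2.83 FPKM (1.42 ± 0.16). Dusp4, an ERK phosphatase, rose from 4.37 and 4.45 FPKM to 38 and 38.6 FPKM (2.86 ± 0.03), which was less than in WT by 0.31 ± 0.04. The immediate early genes Egr1 and Fos rose by 2.21 ± 0.05 and 1.79 ± 0.1, each by over 1 more than in WT. The inhibitor Spry4 fell by 0.8 ± 0.04. Against WT, 14 of the 18 changes were more positive and 1 more negative, and 11 and 1 after rescaling.

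Among Wnt genes, 8 of 16 tested rose, 3 fell and 5 were not called (median 0.23). Of the 17 listed, 8 stayed under 1 FPKM in all 4 KO libraries. The feedback targets Axin2 and Nkd1 rose, Axin2 from 3.12 and 2.98 FPKM to 5.16 and 5.36 FPKM (0.63 ± 0.08) and Nkd1 from 1.56 and 0.82 FPKM to 6.19 and 5.7 FPKM (1.69 ± 0.11). Notum, a secreted Wnt deacylase, fell from 72.1 and 71.8 FPKM to 26.3 and 26.2 FPKM (-1.42 ± 0.09). The ligand gene Wnt6 rose by 0.4 ± 0.12 in KO and fell in WT (-1.36), a difference of 1.75 ± 0.18. Its rise in KO was no longer called without replicate 1 of day 0 (0.31) or of day 2 (0.35), or with a pseudocount of 0.1 (0.55, adjusted p = 0.17). Cdx2 was not tested. In all, 9 changes were more positive than in WT and 2 more negative.

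BMP ligands and Id targets showed no common direction, with 6 of 13 higher, 5 lower and 2 not called (median 0.03; 5 and 5 after rescaling). Bmp4 fell from 103 and 96.9 FPKM to 23.4 and 29.9 FPKM (-1.88 ± 0.33). Its SE, pooled over all groups, was the widest of those named for this pathway. Id1 fell by 0.92 ± 0.02, whereas Id3 rose from 21.6 and 22.2 FPKM to 30.5 and 30.2 FPKM (0.45 ± 0.04). Id3 rose less than in WT, which reached 50.3 and 49.6 FPKM (difference -1.12 ± 0.06). The BMP antagonist Chrd rose by 0.89 ± 0.1, more than in WT by 1.01 ± 0.14. Over the list 6 changes were more positive than in WT and 3 more negative, and 5 and 4 after rescaling. The shares of all genes tested were 35.6% and 13.2% as deposited.

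Retinoic acid genes were mixed as well: 4 of 15 tested rose, 6 fell and 5 were not called (median -0.15). Of the 18 listed, 9 stayed under 1 FPKM in all 4 KO libraries. Crabp2, which carries retinoic acid to its receptors, rose from 18.3 and 18.4 FPKM to 57.7 and 61.4 FPKM (1.65 ± 0.04). Dhrs3, a retinaldehyde reductase, fell by 1.34 ± 0.12 and Stra8 as given above. Cyp26a1, the enzyme that degrades retinoic acid, measured 0.38 and 0.34 FPKM at day 0 and 0.19 and 0.26 FPKM at day 2 and was not called (adjusted p = 0.203). In WT it rose from 0.71 and 0.76 FPKM to 8.38 and 8.37 FPKM, a difference of -2.59 ± 0.14 between the changes (adjusted p = 5.82e-11). Against WT, 4 changes were more positive and 3 more negative, and after rescaling 2 and 3.

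Notch genes rose: 11 of 12 tested were higher, none was lower and 1 was not called, with a median of 0.96, and the counts were the same after rescaling. The ligand Jag2 went from 3.52 FPKM in both day 0 libraries to 24.6 and 23.2 FPKM (2.46 ± 0.07), while WT stayed between 6.04 and 8.32 FPKM. The receptor Notch3 went from 3.48 and 3.27 FPKM to 15.8 and 16 FPKM (1.95 ± 0.1), while WT ended at 7.88 and 8.11 FPKM. Both genes started below WT and ended above it, and their changes differed from WT by 2.11 ± 0.1 and 1.83 ± 0.14 (adjusted p = 9.56e-12 and 4.46e-09). The ligand genes Dll1 and Dll3 rose by 2.27 ± 0.09 and 2.7 ± 0.06. Hes1, a target gene of the pathway, kept 27.2 and 31.3 FPKM at day 0 and 27.7 and 28.4 FPKM at day 2 in KO (-0.05 ± 0.08, adjusted p = 0.547), whereas it fell in WT (-1.1). In 11 of the 12 genes the change was more positive than in WT, also after rescaling, and in none more negative. Over all genes, 35.6% were called more positive in KO than in WT and 13.2% more negative.

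Neural and anterior genes were mixed: 8 of 16 rose, 4 fell and 4 were not called (median 0.3). Sox11, a SOXC factor of neural progenitors, rose from 1.2 FPKM in both libraries to 14 and 14.2 FPKM (2.78 ± 0.03), and the intermediate filament gene Nes rose by 1.49 ± 0.06. Fabp7, a radial glia lipid carrier, went from 0.32 and 0.4 FPKM to 8.86 and 10 FPKM (2.94 ± 0.11), further than in WT, which reached 1.31 and 1.17 FPKM. Irx3, of the Iroquois family, rose by 1.55 ± 0.06, by 1.44 ± 0.08 more than in WT. Pax6 fell from 9.33 and 9.95 FPKM to 2.47 and 2.38 FPKM (-1.63 ± 0.15), and Sox1 fell by 0.25 ± 0.06. Rax, an eye field gene also known as Rx, stayed under 1 FPKM in all 4 KO libraries and fell by 0.31 ± 0.06. Hesx1, an anterior repressor, was not called in KO (0.23 ± 0.13, adjusted p = 0.112) and rose in WT, with a difference of -1.31 ± 0.18. Against WT, 6 changes were more positive and 2 more negative, and 6 and 3 after rescaling.

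Of 11 mesendoderm genes 6 were tested, since T, Mixl1, Mesp1, Evx1 and Cer1 stayed under the filter. Of the 6, 5 rose and 1 fell (median 0.55). Eomes, the T-box gene of the streak, went from 1.95 and 2.19 FPKM to 12.1 FPKM in both libraries (2.09 ± 0.06), and Fgf8 rose as above. The other 4 tested genes stayed under 2 FPKM in group mean. Against WT, 3 changes were more positive and 1 more negative.

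Epithelial adhesion genes rose, while some mesenchymal ones fell. Of 16 genes, 11 rose, 3 fell and 2 were not called (median 1.31). E-cadherin Cdh1 went from 81.9 and 80.6 FPKM to 158 and 159 FPKM (0.95 ± 0.04), and Epcam from 48.4 and 50.1 FPKM to 210 and 213 FPKM (2.08 ± 0.06). Cldn3 rose by 3.21 ± 0.12, by 1.85 ± 0.16 more than in WT. The intermediate filament Vim fell from 216 and 220 FPKM to 63.7 and 66.2 FPKM (-1.73 ± 0.03), and the repressor of E-cadherin Zeb1 fell by 1.29 ± 0.09. Twist1, another mesenchymal factor, went the other way, from 3.19 and 2.17 FPKM to 16.5 and 16.2 FPKM (2.25 ± 0.11), and differed from WT by 1.94 ± 0.16. Across the list 8 changes were more positive than in WT and 1 more negative, and 7 and 1 after rescaling.

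Markers of other cell types that such cultures can hold were low or mixed in KO. Of 16 primitive endoderm genes, 5 rose, 4 fell and 7 were not called (median -0.01), and 6 of the 16 stayed under 1 FPKM in all 4 libraries. Summed over the list, the level was 179 and 177 FPKM at day 0 and 117 and 113 FPKM at day 2, against 261 and 270 FPKM, then 280 and 279 FPKM, in WT. Sparc, a matrix protein that many cell types make, contributed 96.6 and 96.1 FPKM to the KO sum at day 0 and 40.4 and 40.1 FPKM at day 2 (-1.24 ± 0.03). The defining factor Gata4 measured 0.77 and 0.65 FPKM at day 0 and 0.85 and 0.7 FPKM at day 2 and was not called (adjusted p = 0.504), and Gata6 fell by 0.73 ± 0.1 to 0.2 and 0.29 FPKM. Ttr was listed at 0 in all 4 KO libraries and reached 4.99 and 4 FPKM in WT at day 2. The list changed less positively in KO than in WT for 7 genes and more positively for 3, and for 7 and 1 after rescaling. Its part in the other differences from WT was not tested.

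Of 10 trophoblast markers 6 were tested, and 3 rose, 2 fell and 1 was not called (median 0.52; 3 and 3 after rescaling). Tfap2c, which naive stem cells also express, fell from 28.4 and 27.9 FPKM to 3.11 and 2.74 FPKM (-2.89 ± 0.06), and Ascl2 rose from 1.04 and 0.61 FPKM to 7.67 and 7.61 FPKM (2.25 ± 0.15). The defining genes Elf5, Cdx2, Gata3 and Plac1 were under the filter, and the summed level went from 38.4 and 38.5 FPKM to 27.9 and 27.4 FPKM. Against WT, 4 changes were more positive and none more negative, and 4 and 1 after rescaling. Of 10 fibroblast feeder markers 8 stayed under 1 FPKM in all 4 KO libraries. The list summed to 6.84 and 8.31 FPKM at day 0 and 13.8 and 11.7 FPKM at day 2, mostly Thy1, which stem cells also express and which rose by 1.11 ± 0.15. Acta2 fell by 0.74 ± 0.08, the other 8 were not called (median 0.02), and 2 changes were more positive and 1 more negative than in WT.

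Glycolysis and hypoxia genes rose together, 19 of 23, with 2 lower and 2 not called and a median of 1.3. Primed epiblast cells are known to rely on glycolysis. Slc2a1, the glucose transporter, went from 107 and 109 FPKM to 439 and 433 FPKM (2 ± 0.03), Pfkl, phosphofructokinase, rose by 2.46 ± 0.02, and Tpi1 by 2.75 ± 0.02. Ldha, lactate dehydrogenase, went from 452 and 454 FPKM to 2029 and 2010 FPKM (2.15 ± 0.01), a rise that did not pass the test of a difference from WT (-0.05 ± 0.02, adjusted p = 0.0596). Among hypoxia targets, Bnip3, a mitophagy receptor, rose from 8.11 and 7.5 FPKM to 142 and 137 FPKM (4 ± 0.03), and Ddit4, an inhibitor of mTORC1, from 10.6 and 9.62 FPKM to 215 and 208 FPKM (4.26 ± 0.04). Egln3, a prolyl hydroxylase that senses oxygen, rose by 3.77 ± 0.07 and Ankrd37 by 3.16 ± 0.06. Hk1 fell by 0.98 ± 0.04. In 17 of the 23 genes the change was more positive than in WT and in 1 more negative, and after rescaling in 14 and 5. The differences were largest for Ddit4 (2.62 ± 0.06), Egln3 (1.97 ± 0.1), Ankrd37 (1.57 ± 0.09) and Slc2a3 (1.53 ± 0.03), a glucose transporter that changed by -0.08 ± 0.02 in KO and by -1.6 in WT.

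Cholesterol and fatty acid synthesis genes also rose in KO, 22 of 26, with none lower and 4 not called (median 0.49), and the counts were the same after rescaling. In WT the median was -0.44. Hmgcs1, which opens the mevalonate pathway, went from 42.6 and 40.8 FPKM to 68.7 and 69 FPKM (0.71 ± 0.02), while WT went from 79.9 and 79.2 FPKM to 62.1 and 62.5 FPKM. Msmo1, a sterol oxidase, went from 57.6 and 58.7 FPKM to 111 and 112 FPKM (0.93 ± 0.04), while WT fell from 87.6 and 78.9 FPKM to 53.6 and 52.7 FPKM. KO thus started below WT and ended above it for both genes. Dhcr7, the last step to cholesterol, rose by 0.96 ± 0.07. The change was more positive than in WT for 25 of the 26 genes and more negative for none. After rescaling 25 were more positive, and the fatty acid synthase Fasn was more negative.

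p53 targets rose in 14 of 15 cases, with 1 lower and a median of 0.88, and the counts were the same after rescaling. The cell cycle inhibitor Cdkn1a went from 22.3 and 22.9 FPKM to 46.7 and 40.8 FPKM (0.92 ± 0.06), while WT held between 28 and 29.3 FPKM. Bbc3, or Puma, which promotes apoptosis, went from 18.4 and 15.3 FPKM to 62.9 and 61.9 FPKM (1.83 ± 0.09). Perp, a desmosome and apoptosis effector, went from 6.54 and 6.27 FPKM to 16.4 and 15.6 FPKM (1.2 ± 0.08) and fell in WT (-0.81). These 3 changes exceeded WT by 0.97 ± 0.09, 1.39 ± 0.13 and 2.01 ± 0.12. Btg2 and Phlda3 rose by 1.59 ± 0.05 and 1.5 ± 0.07, and Mdm2, which degrades p53, by 0.33 ± 0.04. Sesn1 was the 1 that fell (-1.15 ± 0.06). In 14 of the 15 genes the change was more positive than in WT, also after rescaling, where Bax became the 1 more negative gene.

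Among genes of the integrated stress response, 11 of 16 tested rose, 1 fell and 4 were not called (median 0.21; 8 and 3 after rescaling). Chac1, which degrades glutathione, rose by 1.01 ± 0.06 and Vldlr by 1.58 ± 0.07, while Asns, asparagine synthetase, fell from 126 and 134 FPKM to 73.3 and 69.5 FPKM (-0.86 ± 0.04). Against WT, 6 changes were more positive and 4 more negative, and 5 and 6 after rescaling. Of the cyclins and CDK inhibitors 5 of 11 rose, 2 fell and 4 were not called (median 0.16). Cyclin Ccnd3 fell from 170 and 173 FPKM to 62.1 and 57.5 FPKM (-1.5 ± 0.04), and the inhibitor Cdkn1c rose from 3.93 and 3.82 FPKM to 12.5 and 15.6 FPKM (1.62 ± 0.11), by 1.45 ± 0.15 more than in WT. In that list 4 changes were more positive than in WT and 1 more negative, and 4 and 2 after rescaling.

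Imprinted genes rose in 15 of 19 tested cases, with 3 lower and 1 not called (median 1.2; 14 and 4 after rescaling). The maternal noncoding RNA Meg3 went from 287 and 295 FPKM to 1032 and 1009 FPKM (1.81 ± 0.02). Nnat, a paternally expressed proteolipid gene, went from 9.47 and 7.88 FPKM to 60.8 and 57.4 FPKM (2.64 ± 0.05). The neighbours Peg10 and Sgce rose by 0.56 ± 0.03 and 1.54 ± 0.07, and Phlda2 by 0.55 ± 0.1. Peg10 and Phlda2 fell in WT, and the differences were 1.4 ± 0.04 and 1.85 ± 0.14. In all 11 changes were more positive than in WT and 4 more negative, and 8 and 5 after rescaling. Zim1 was not tested.

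The m6A genes moved within a narrow range, from -0.54 to 0.78, with 9 of 18 higher, 5 lower and 4 not called (median 0.13), which after rescaling became 6 higher and 7 lower. The demethylase gene Alkbh5 rose from 11.9 and 11.8 FPKM to 21.3 and 20.7 FPKM (0.78 ± 0.04). Wtap, a regulatory subunit of the writer, fell from 126 and 122 FPKM to 89.3 and 88.4 FPKM (-0.47 ± 0.03), and the reader gene Igf2bp3 fell by 0.54 ± 0.04. Against WT, 9 changes were more positive and 4 more negative, and 5 and 4 after rescaling. Over all genes tested, 35.6% were more positive and 13.2% more negative. Of the 13 mitochondrially encoded genes 2 rose, 3 fell and 8 were not called (median 0.03). The largest fall was that of mt-Nd5 (-0.36 ± 0.04). In 6 of the 13 the change was more negative than in WT (7 after rescaling), and in none more positive. The WT day 0 duplicates differed in the sum of these genes, at 110058 and 83682 FPKM.

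The same 2 days were then compared between KO and WT, which share no library. Across tested genes the changes of KO and WT had Pearson's r of 0.77 and Spearman's rho of 0.664, as a description, since genes share libraries. Of the 1247 genes that rose by at least 1 in KO, 491 did so in WT (39.4% of the KO and 76.2% of the 644 WT genes), 1035 (83%) were called higher in WT, and 36 were called lower. Of the 796 that fell by at least 1 in KO, 640 did so in WT (80.4% of the KO and 55.8% of the 1146 WT genes), 761 (95.6%) were called lower in WT and 2 higher. These counts are as deposited. The shares of all genes tested that were called higher or lower in WT are not given beside them. The counts therefore do not measure agreement. Tested directly, the difference between the changes was called in 5802 genes (35.6%) as more positive in KO and in 2150 (13.2%) as more negative. By at least 1 it was positive in 648 genes (3.98%) and negative in 109 (0.67%). The split depended on scaling: 73% of called differences were positive as deposited and 55.4% after rescaling, which moved the median difference of all genes from 0.14 to 0.04. The median difference on chromosome 8 was 0.26, against 0.07 to 0.18 on the other chromosomes. Junb, Klf2, Zfp42, Gdf1, Nkd1, Irx3, Sox1, Msmo1, Ankrd37, Dusp4, Cdh1 and Exosc6 lie on it.

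Adm led the 8 most positive differences from WT, among which Ddit4 was given above. Adm, the vasodilator peptide adrenomedullin, went from 0.12 and 0.24 FPKM to 21.2 and 20.3 FPKM in KO and from 0.19 and 0.07 FPKM to 1.4 and 1.23 FPKM in WT. This was a difference of 3.17 ± 0.11 (adjusted p = 9.87e-14). Anxa2, a membrane-binding annexin, went from 3.9 and 4.55 FPKM to 55.9 and 53.8 FPKM in KO, and WT reached 11.1 FPKM in both day 2 libraries (difference 2.94 ± 0.1). P4ha2, a collagen prolyl hydroxylase, rose by 2.4 ± 0.1 in KO and fell in WT (-0.45), and Bhlhe40, a circadian and hypoxia repressor, rose by 2.05 ± 0.05 in KO and fell in WT (-0.63). The differences were 2.85 ± 0.14 and 2.68 ± 0.08. Ier3, an early response gene, differed by 2.52 ± 0.12, and Tap1, the peptide transporter of antigen presentation, by 2.37 ± 0.18. Ptprv, a phosphatase, had the widest pooled SE (2.68 ± 0.42), and its WT day 2 duplicates measured 1.63 and 3.48 FPKM.

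Amn and Cubn led the 8 most negative differences. These 2 chains of a receptor for vitamin uptake, known from the visceral endoderm, stayed under 2 FPKM in every KO library of both days and reached 22.7 and 25.2 FPKM (Amn) and 9.51 and 9.18 FPKM (Cubn) in WT at day 2. The differences were -2.78 ± 0.21 and -2.61 ± 0.07 (adjusted p = 4.55e-09 and 1.78e-15). Apoa1, an apolipoprotein, ended at 0.52 and 0.61 FPKM in KO and 4.17 and 5.97 FPKM in WT (difference -2.15 ± 0.22), with WT listed at 0 on day 0. Ctsh, a lysosomal protease, ended at 1.94 FPKM in both KO libraries and 17.7 and 17.1 FPKM in WT (-2.35 ± 0.19), and Cited1, a transcriptional coactivator, at 4.19 and 3.76 FPKM in KO and 16.2 and 16.9 FPKM in WT (-2.41 ± 0.2). Pga5 differed by -2.46 ± 0.17 and Cyp26a1 as above. Rpph1, the RNA of RNase P, which is not polyadenylated, fell in KO and rose in WT (-2.52 ± 0.38), and its fall in KO was not called without replicate 2 of day 2 (-0.78).

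**Figure D3:**
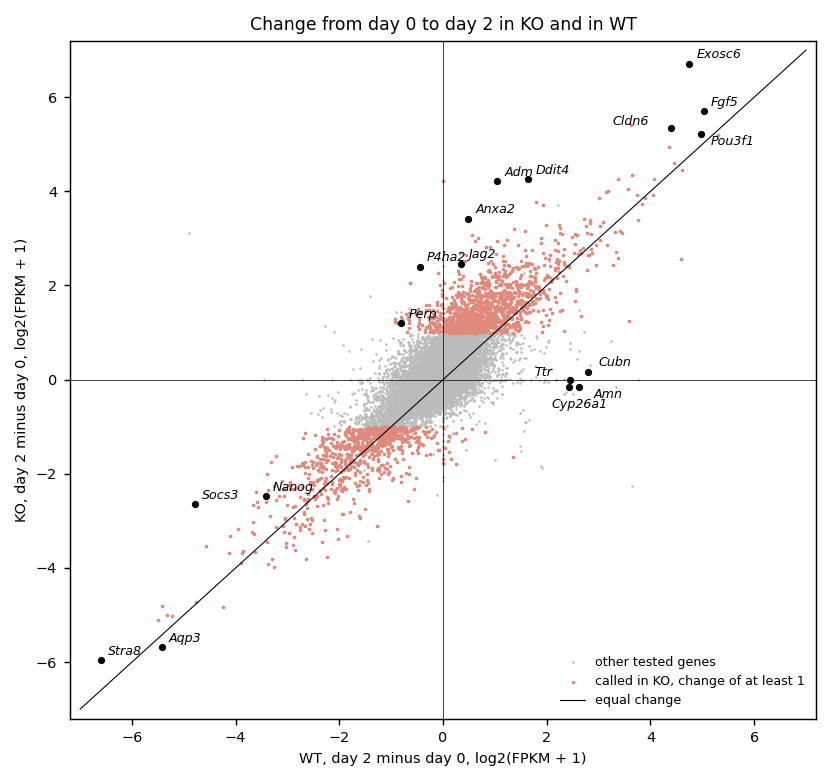
Change from day 0 to day 2 on the log2(FPKM + 1) scale in WT (horizontal) and KO (vertical) for each tested gene, with genes called in KO at a change of at least 1 in red, named genes in black and the line of equal change. Adm, Anxa2 and P4ha2 lie above the line, and Amn, Cubn and Cyp26a1 below it.

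The KO change was also set beside that of the KO line carrying the fusion. Against the fusion with Dex, 4821 genes (29.6%) changed more positively in KO and 2221 (13.6%) more negatively. Of these calls 68.5% were positive, and 54% after rescaling. Against the fusion without Dex, 4246 genes (26.1%) were more positive in KO and 4327 (26.6%) more negative. Of these calls 49.5% were positive, and 57.9% after rescaling. The median change over all genes tested was 0.06 in KO, 0.1 without Dex, 0 with Dex and -0.03 in WT. For the cholesterol list the median change was 0.49 in KO, 0.25 in the fusion without Dex, -0.47 with Dex and -0.44 in WT. In 25 of the 26 genes the KO change was more positive than with Dex, and in 14 than without Dex, where 4 were more negative. The p53 targets had medians of 0.88 in KO, 0.61 without Dex, 0.22 with Dex and -0.05 in WT, with 13 of 15 more positive in KO than with Dex and 8 than without, where 6 were more negative. The Notch list had medians of 0.96, 0.97, 0.34 and 0.24 in the same order, with 10 of 12 more positive in KO than with Dex and 4 than without, where 3 were more negative. The LIF and STAT3 list had medians of -1.63 in KO, -2.49 without Dex, -2.46 with Dex and -2.25 in WT. Of its 9 changes, 6 were more positive in KO than with Dex and 5 than without, where 3 were more negative. Rescaled counts more positive than with Dex were 25 for cholesterol, 11 for p53, 10 for Notch and 4 for LIF and STAT3. None of these lists then had a more negative gene. The glycolysis and hypoxia list had medians of 1.3, 1.22, 1.41 and 1.02 in the same order. Of its 23 genes, 10 changed more positively in KO than with Dex and 5 more negatively, and 8 and 7 after rescaling. Against the fusion without Dex, 14 were more positive in KO and 3 more negative. Only some lists are given here, and others leaned to the negative side against the fusion without Dex. There 11 of 15 naive genes changed more negatively in KO and 2 more positively. The same held for 15 of 18 m6A genes (2 more positive) and 8 of 9 DNA methylation enzymes (1 more positive).

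**Figure D4:**
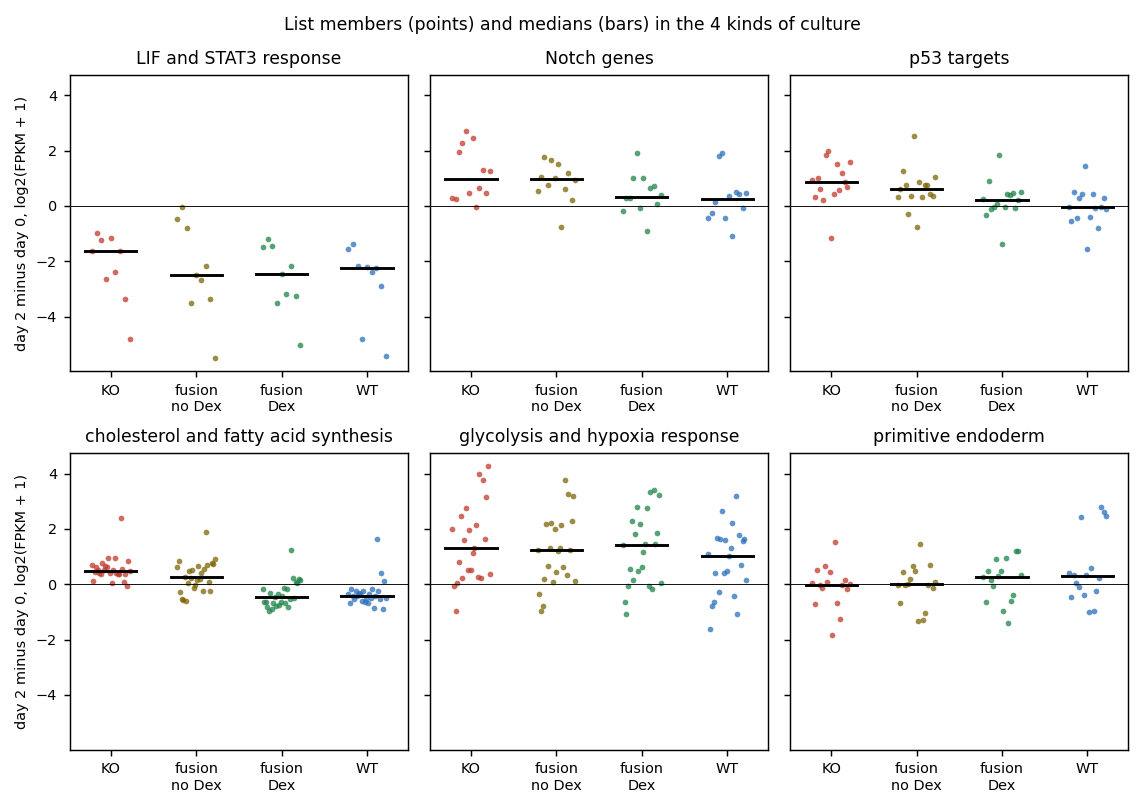
Change from day 0 to day 2 on the log2(FPKM + 1) scale of the tested members (points) and their median (bars) for 6 gene lists in KO, in the fusion line without and with Dex, and in WT. The cholesterol list has its median above 0 in KO and without Dex (0.49 and 0.25) and below 0 with Dex and in WT (-0.47 and -0.44).

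Levels at days 4 and 6 show which of the day 2 values lasted, as a description with no test. In KO, Fgf5 fell back from its day 2 level to 28.8 ± 3.12 FPKM (SD, n = 2) on day 4 and 0.11 ± 0.042 FPKM on day 6, and Cldn6 ended at 1.67 FPKM. Nanog stood at 22.2 FPKM on day 4 and 4.95 FPKM on day 6. Jag2 was highest at day 2, while Notch3 went on to 28.9 FPKM and then 45.1 FPKM. Fabp7 reached 189 FPKM at day 6. Cyp26a1, under 1 FPKM in KO through day 2, stood at 32.2 FPKM on day 4 and 0.145 FPKM on day 6. Adm held 22.2 FPKM on day 4 and 2.4 FPKM on day 6.

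**Figure D5:**
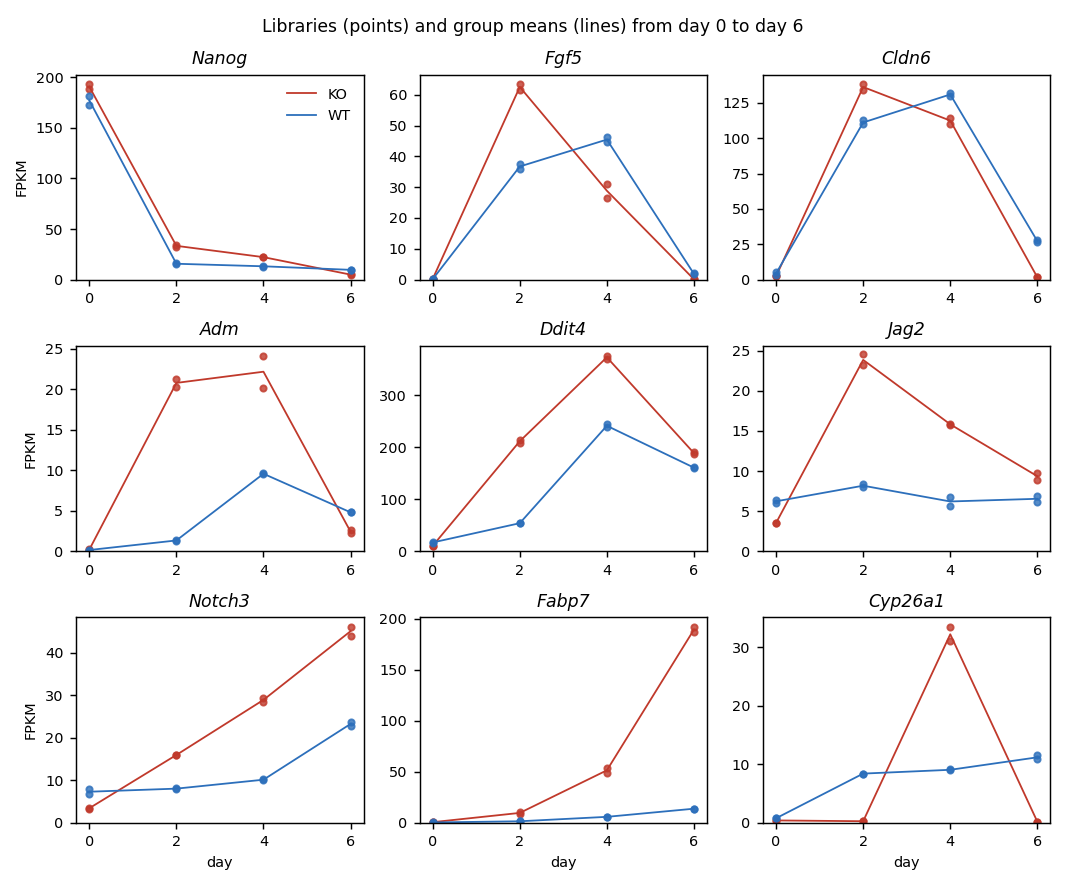
FPKM on linear axes of 9 genes in KO (red) and WT (blue) libraries (points) at days 0, 2, 4 and 6, with lines through the group means of 2 libraries. Fgf5 and Jag2 are highest at day 2 in KO, and Cyp26a1 peaks at day 4 in KO (32.2 FPKM).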

How the data were processed

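Polyadenylated RNA of 32 libraries was sequenced as paired ends, per the labels. The deposited values are FPKM per gene, computed by the authors. STAR, Cuffdiff and the build mm10 are named in the submitters' processing notes, without versions or settings, and 55492 rows were deposited. Positions come from GENCODE M21, matched for 99.5% of rows by Ensembl ID. Depth was estimated from steps between low FPKM values, of which 89% to 93.4% lay within 0.2 of a whole fragment. Depth and length correction were chosen to bring these same values near whole fragments, so this share is no independent check. A depth that was not fitted would give 40%.

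Genes with at least 1 FPKM in at least 2 libraries (16276) were tested as log2(FPKM + 1) in R 4.3.3 with limma 3.58.1 (lmFit, contrasts.fit, eBayes with trend), in 1 fit of 16 group means, with Benjamini-Hochberg adjustment over all genes tested. The fit and the depth estimate were run on simulated data with known answers. With 200 genes moved, the KO test found 73.8% of changes of 0.5 and 86.8% of changes of 1, with 4.9% false calls. For the difference from WT these were 58.4%, 78.2% and 6.4%. Far fewer genes were moved than were called here, so these rates need not hold for the data. Simulated depth was recovered within 0.33%, with a smaller length correction than the libraries gave. Named genes were Mettl3, list members, the 10 largest rises and falls in KO and the 8 most positive and most negative differences from WT. The ranked genes were called, had a higher group mean of at least 5 FPKM and were not predicted or small RNA genes. For changes in KO, the libraries of the 2 days did not overlap. For differences, the 2 KO changes by replicate number did not overlap the 2 WT changes, a pairing by number only. Members and lists were chosen with earlier results of these data known. Alternatives changed the pseudocount, filter, scaling, libraries fitted, replicate block, chromosome 8 genes and each library. Replicate numbers did not pair libraries: residuals of same-numbered KO libraries of the 2 days correlated at 0.008. Single values of a few list members are not reported here.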

Additional observations from a re-analysis of the deposited data

Results flagged for a closer look

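In 59 named genes the KO and WT changes over the 2 days lay at least 1 apart on the log2(FPKM + 1) scale, by limma's interaction term at a Benjamini-Hochberg adjusted p under 0.05. Each value is the KO change minus the WT change, so a positive value is a larger rise or a smaller fall in KO. Of the 8 most positive and 8 most negative differences, those were 3.17 for Adm, 2.94 for Anxa2, 2.85 for P4ha2, 2.68 for Ptprv, 2.68 for Bhlhe40, 2.62 for Ddit4, 2.52 for Ier3, 2.37 for Tap1, -2.78 for Amn, -2.61 for Cubn, -2.59 for Cyp26a1, -2.52 for Rpph1, -2.46 for Pga5, -2.41 for Cited1, -2.35 for Ctsh and -2.15 for Apoa1. Among pluripotency, LIF, 2-cell-like and DNA methylation genes the difference was -1.03 for Tcl1, 2.14 for Socs3, 1.05 for Junb, 1.03 for Tet2 and -1.13 for Zscan4d. Among genes of signalling pathways it was 1 for Nodal, 1 for Gdf1, 1.17 for Smad7, 1.06 for Egr1, 1.24 for Fos, 1.75 for Wnt6, -1.12 for Id3, 1.01 for Chrd, 1.83 for Notch3, 2.11 for Jag2 and 1.05 for Hes1. Neural and adhesion genes stood at 1.14 for Sox1, -1.31 for Hesx1, 1.9 for Fabp7, 1.44 for Irx3, 1.85 for Cldn3 and 1.94 for Twist1. Markers of other cell types stood at -1.79 for Dab2, -1.01 for Sparc, -2.45 for Ttr, 1.08 for Ascl2, 1.67 for Acta2 and 1.48 for Tagln. Metabolic genes stood at 1.53 for Slc2a3, 1.29 for Vegfa, 1.97 for Egln3, 1.57 for Ankrd37, 1.06 for Hmgcs1, 1.57 for Msmo1 and 1.44 for Dhcr7. p53 targets, a CDK inhibitor and imprinted genes stood at 1.39 for Bbc3, 1.08 for Phlda3, 2.01 for Perp, 1.69 for Btg2, 1.45 for Cdkn1c, 1.4 for Peg10, 1.85 for Phlda2 and 1.21 for Sgce.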

How the results depend on the processing

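With 2 libraries a group, each fold rests on 4 libraries and each difference from WT on 8, and depth limits genes near 0. Called genes in KO were 10684, and 7007 with a mean of at least 5 FPKM, where fewer genes were tested. Changes of at least 1 went from 2043 to 3618 with a pseudocount of 0.1 and to 1142 with that mean, and differences from WT of at least 1 from 757 to 1832 and to 375. With only the compared groups fitted, 9683 genes were called in KO, and called differences from WT went from 7952 to 6262. The limma adjusted p of the Fgf5 change in KO was then 0.000302, beside 2.47e-20 with all libraries fitted. Leaving out each library in turn gave 9737 to 9861 called genes in KO, 2066 to 2112 with a change of at least 1, 7107 to 7750 differences from WT, 752 to 843 of at least 1, 6283 to 6418 differences from the fusion with Dex and 7867 to 8078 without it. The changes that reversed were those of genes not called in KO, namely Amn (from -0.37 to 0.05 over the libraries left out), Hes1 (from -0.15 to 0.04) and Gata4 (from -0.01 to 0.11), and 2 differences from WT, Fgf15 (-0.01 with a pseudocount of 0.1) and Tpi1 (-0.04 after rescaling), for which the cause was not tested. Same-numbered libraries did not deviate together (residual correlation 0.008 in KO and -0.088 in WT). With a replicate block, 10677 genes were called in KO, 2043 with a change of at least 1, 7904 against WT, 758 of those by at least 1, 7008 against the fusion with Dex and 8552 without it. Of 169 named changes in KO, 166 kept direction and side of the threshold after rescaling and 168 with a pseudocount of 0.1. Of 118 named differences from WT, 112 did so after rescaling (5 lost their call, 1 reversed), 113 with a pseudocount of 0.1 (4 lost, 1 reversed), 107 with only the compared groups fitted (11 lost), 117 with no filter on low values (1 lost) and 118 with the block, and leaving out each library lost a call in 15 cases and changed neither direction nor side of the threshold in the other 929.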

Other observations

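Of the genes tested, 4 read 0 in both KO libraries of day 0 and at least 5 FPKM in both at day 2 (Tceal6, Gm10059, Exosc6 and Gm47623), and 1 did the reverse (Gm40304). They were picked out after their values were seen. In FPKM tables a 0 can be a failed estimate, so no fold is given.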
